A study of Mus musculus with 3 samples.

Results

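Guanylate-binding proteins (GBPs) and immunity-related GTPases (IRGs) are interferon-induced enzymes that bind and cleave GTP. The 10 genes Gbp2, Gbp3, Gbp4, Gbp5, Gbp6, Gbp7, Igtp, Irgm1, Irgm2 and Iigp1 were found by symbol and Ensembl ID, 10 of the 30406 genes present in all 3 deposited gene lists. Nuclei came from snap-frozen whole mouse corneas at 7 weeks of age, 5 mice pooled per library, with 1 library per group. WT mice were wild type and untreated, KO mice lacked Aire and were untreated, and KO_PBS mice lacked Aire and received phosphate-buffered saline (PBS) for 14 days. Aire drives the display of self-antigens in the thymus, and the study uses its loss as a model of autoimmune dry eye. The labels give no strain, allele or sex. The series text states 6 weeks and treatment day 7 instead, and names an arm given lacripep that was not analysed here.

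Both GTPase families are induced mainly by interferon gamma and also by type I interferons. GBPs gather on vacuoles and membranes that hold intracellular microbes and help expose them to inflammasomes. Among the IRGs, Iigp1 is an effector that loads onto such vacuoles, whereas Irgm1, Irgm2 and Igtp are regulators that sit on the cell's own membranes and keep the effectors inactive there.

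Promoter windows that hold the binding letters of interferon-activated factors are shown first, since both families are known for this route of induction. Interferon gamma acts through the GAS element, searched here as TTCNNNGAA. Type I interferon factors and IRF proteins bind the ISRE, searched as GAAA, any 2 bases and GAAA. Both strands of the 250 bases before each annotated start were searched, and matches were allowed to overlap. RefSeq promoters (GRCm38.p6) were searched for 7 of the 10 members, and none was searched for Gbp4, Gbp6 and Iigp1. That gap does not mean that RefSeq lacks a promoter for these genes. The windows below hold the matches, written 5′ to 3′ along the gene's strand with matched letters in capitals. On the opposite strand an ISRE reads TTTC, any 2 bases and TTTC.
Gbp2 (chr3:142620594-142620623, plus strand): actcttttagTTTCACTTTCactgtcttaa
Gbp3 (chr3:142559989-142560025, plus strand): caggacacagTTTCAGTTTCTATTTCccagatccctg
Gbp5 (chr3:142496759-142496899, plus strand): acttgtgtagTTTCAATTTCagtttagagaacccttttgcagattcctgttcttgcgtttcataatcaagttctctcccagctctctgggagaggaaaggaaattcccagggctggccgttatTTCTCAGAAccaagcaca
Gbp7 (chr3:142530220-142530335, plus strand): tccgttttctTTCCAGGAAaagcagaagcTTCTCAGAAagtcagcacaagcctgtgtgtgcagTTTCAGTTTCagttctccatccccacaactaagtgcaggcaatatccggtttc
Igtp (chr11:58199501-58199555, plus strand): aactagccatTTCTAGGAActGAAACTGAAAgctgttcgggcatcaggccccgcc
Irgm1 (chr11:48871428-48871457, minus strand): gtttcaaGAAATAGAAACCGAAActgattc
Irgm2 (chr11:58214892-58214976, plus strand): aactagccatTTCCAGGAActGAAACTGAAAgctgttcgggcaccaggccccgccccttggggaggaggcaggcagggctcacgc

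An ISRE match was present before 7 of these 7 genes, against 2.98% of the 32851 mouse promoters searched the same way. Gbp3 and Irgm1 each held 2 overlapping matches, and the other annotated start of Gbp3 held none. A GAS match was present before 4 of 7 genes (Gbp5, Gbp7, Igtp and Irgm2), against 7.02% of promoters. Both kinds stood before those same 4 genes and before 0.332% of all promoters. In Igtp and Irgm2 the GAS match ended shortly before the ISRE match. This stretch is near-identical in both windows, so the matches of Igtp and Irgm2 are not separate observations. A further GAS match of Gbp5, 245 bases before its start, lies outside the printed window. The windows of Gbp2 and Irgm1 overlap annotated exons of the gene's own models. Those of Gbp5 and Irgm2 lie inside the gene spans given below, since the RefSeq starts used for both are downstream of where those spans begin. All of the matches are matches of letters and no measure of binding.

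The members lie in clusters in the mouse genome (GRCm38, GENCODE M21 gene models). Gbp5 (ENSMUSG00000105504, chr3:142493978-142522344), Gbp7 (ENSMUSG00000040253, chr3:142530342-142550149), Gbp3 (ENSMUSG00000028268, chr3:142560026-142573209) and Gbp2 (ENSMUSG00000028270, chr3:142620602-142638008) lie side by side on the plus strand. Gbp4 (ENSMUSG00000079363, chr5:105115767-105139586) and Gbp6 (ENSMUSG00000104713, chr5:105270702-105293698) lie on the minus strand. Igtp (ENSMUSG00000078853, chr11:58199556-58207591) overlaps Irgm2 (ENSMUSG00000069874, chr11:58199618-58222782) on the plus strand, and Irgm1 (ENSMUSG00000046879, chr11:48861968-48871683) lies on the minus strand. Iigp1 (ENSMUSG00000054072) lies on chromosome 18. All 10 are protein-coding.

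Values for 3 libraries are listed below in the order WT, KO and KO_PBS unless stated. The deposited matrices held 96587, 107031 and 114357 barcodes, with a median of 2261, 2980 and 1432 UMIs (unique transcript molecules) per barcode and 256852883, 352627863 and 178988562 UMIs in all. Aire itself had 15, 27 and 68 UMIs, at 0.0586 CPM (0.0328 to 0.0967), 0.0768 (0.0506 to 0.112) and 0.382 (0.297 to 0.485). It was thus higher in the library labelled KO_PBS than in WT, against the direction of that label, and was not lower in KO. The deleted part of the gene is not given in the sources used here, so WT, KO and KO_PBS below mean the libraries so labelled. Markers of corneal epithelium (9 of 9) and of keratocytes (9 of 9), the cells of the stroma, were detected in every library. The epithelial markers summed to 39226, 24642 and 10685 CPM (UMIs per 1000000) and those of keratocytes to 1147, 3978 and 2344. Markers of cells outside the cornea were highest in KO_PBS, although the labels give whole cornea, with sums of 411, 162 and 6936 CPM for lens, 602, 224 and 4122 for melanocytes and 112, 53.0 and 1418 for photoreceptors. The part of these cells in the results below was not tested. Pairs of libraries shared 2833 (WT and KO), 2998 (WT and KO_PBS) and 3379 (KO and KO_PBS) barcode sequences. Since each group is 1 library, differences have no replicate behind them and carry no p-value. Every interval below (95%, exact Poisson for levels and exact binomial for shares) covers counting error only. In sums over a library, fewer cells of a type and less RNA per cell cannot be told apart.

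All 10 genes stood far higher in both knockout libraries than in WT. Together they took 52.4 CPM in WT (51.6 to 53.3), 1255 in KO (1251 to 1258) and 1142 in KO_PBS (1137 to 1147). That is 23.9-fold more in KO than in WT (23.5 to 24.3) and 21.8-fold more in KO_PBS than in WT (21.4 to 22.2). Scaling moves these ratios by more than the counting error. The KO ratio was 18.1 with median-of-ratios and 22.3 with TMM factors, and the KO_PBS ratio 11.7 and 12.6, so each KO_PBS ratio to WT below would be lower in the same proportion. A gene was called different when its UMIs in the compared libraries reached 50 together, its CPM ratio was 2-fold or more (counts under 3 were raised to 3) and the intervals were disjoint. By that rule of size 10 of 10 members were higher and 0 lower in KO, against 20.6% higher and 8.63% lower among the 20252 genes compared with WT. In KO_PBS 10 of 10 were higher and 0 lower, against 57% and 4.06% of 22138 genes. The median log2 ratio of the members was 4.88 for KO over WT, beside 0.24 for all genes. For KO_PBS over WT it was 4.28, beside 1.27 for all genes. Both comparisons use the same WT library.

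**Figure D1:**
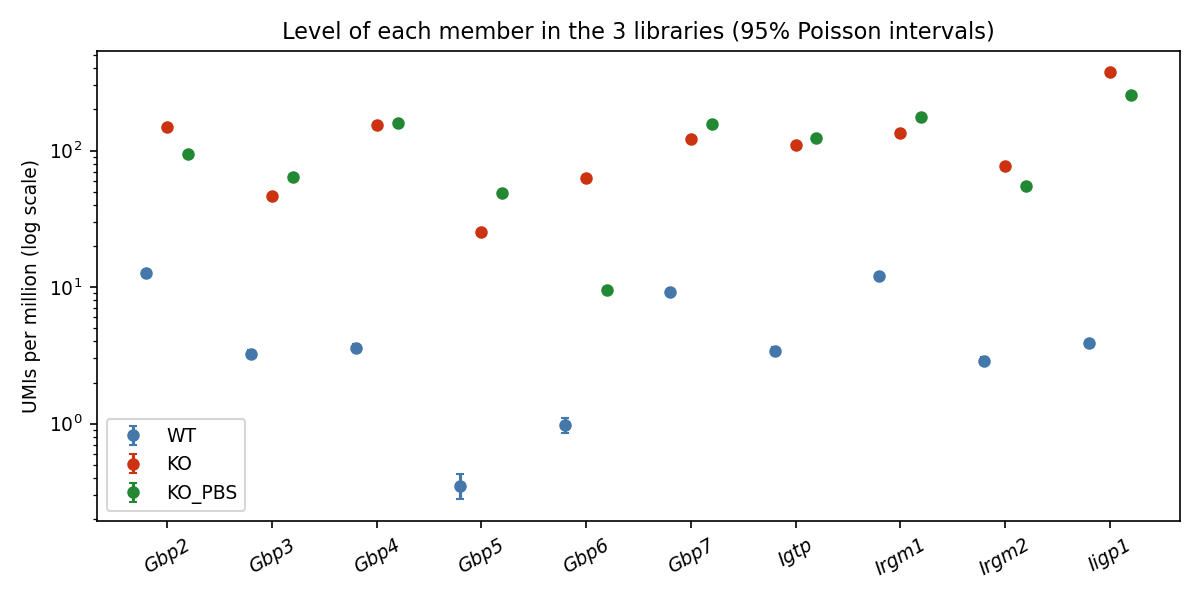
Level of each of the 10 genes in the 3 libraries, in CPM on a log axis. Points are single libraries and bars are 95% Poisson intervals, mostly smaller than the point. For every gene the WT point lies lowest, from 0.348 for Gbp5 to 12.8 for Gbp2.

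Among the IRGs, the effector Iigp1 was at 3.87 CPM (3.63 to 4.12), 374 (371 to 376) and 254 (252 to 256). It was lowest in WT by 96.5-fold against KO (90.6 to 103) and 65.6-fold against KO_PBS (61.6 to 69.9). Its KO over WT ratio was the highest of the 10. Iigp1 made up 7.38%, 29.8% and 22.2% of the members' UMIs, so the mix of members also differed between libraries.

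The regulators were higher than WT in both knockout libraries too. Irgm1, whose loss in mice impairs control of mycobacteria, was at 12.1, 135 and 176 CPM. Its ratio to WT was 11.1-fold in KO (10.7 to 11.6) and 14.6-fold in KO_PBS (14.0 to 15.1), and its share of the members' UMIs was 23.1% in WT against 10.8% in KO and 15.4% in KO_PBS. Igtp, also named Irgm3, was at 3.41, 110.1 and 123 CPM. The ratios were 32.3-fold in KO (30.2 to 34.6) and 36.0-fold in KO_PBS (33.6 to 38.6). Irgm2 was at 2.88, 77.5 and 54.9 CPM, higher than WT by 26.9-fold in KO (24.97 to 28.9) and 19.0-fold in KO_PBS (17.7 to 20.5). Igtp and Irgm2 share 162 exonic bases, 8.01% of those of Igtp, and 99.2% of the span of Igtp lies within Irgm2 on the same strand. Whether intronic reads counted is not given, so how many reads could fall to either gene is not known.

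Of the GBP cluster on chromosome 3, Gbp2, which coats vacuoles of Toxoplasma, was at 12.8, 149.97 and 95.2 CPM. It was 11.7-fold higher in KO (11.3 to 12.2) and 7.45-fold higher in KO_PBS (7.17 to 7.73) than in WT, the latter 3.99-fold and 4.31-fold with median-of-ratios and TMM factors. Its share of the members' UMIs was 24.4% in WT and 12.0% and 8.34% in the knockout libraries. Gbp3 was at 3.24, 46.3 and 64.3 CPM, a ratio of 14.3 in KO (13.3 to 15.3) and 19.8 in KO_PBS (18.5 to 21.3). Gbp7, which has been linked to the assembly of the phagocyte oxidase, was at 9.24, 121 and 157 CPM. Its ratios were 13.1 (12.6 to 13.7) and 17.0 (16.3 to 17.7), so Gbp3 and Gbp7 stood highest in KO_PBS by library totals, although below KO with TMM or median-of-ratios scaling.

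Gbp5, which promotes NLRP3 inflammasome assembly, had 89 UMIs in WT, the fewest of the 10, or 0.348 CPM (0.279 to 0.428), which makes its ratios the least precise. In KO it reached 25.1 CPM (24.6 to 25.7) and in KO_PBS 48.9 (47.8 to 49.9). The ratio to WT was 72.2 in KO (58.6 to 90.1) and 140.5 in KO_PBS (114 to 175), the largest of the 10 members in that comparison. With median-of-ratios and TMM factors the latter was 75.3 and 81.3. Its share of the members' UMIs was 0.663%, 2.00% and 4.28%.

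On chromosome 5, Gbp4 was at 3.57, 153 and 159 CPM, with ratios to WT of 42.8 (40.1 to 45.7) and 44.6 (41.7 to 47.7). The span of Gbp4 lies 99.8% within each of Gbp8 and Gbp9 on the same strand, with 61 and 60 exonic bases shared, so the same limit holds for it. By library totals the KO and KO_PBS levels of Gbp4 were the nearest of any member (log2 ratio 0.06), whereas with median-of-ratios or TMM factors those of Gbp3 were (-0.02 and -0.21). Gbp6 had another profile, with its KO_PBS level far below its KO level. It was at 0.973 CPM in WT (0.856 to 1.10), 63.2 in KO (62.3 to 63.99) and 9.55 in KO_PBS (9.10 to 10.01), which is 64.9-fold over WT in KO (57.3 to 73.8) but 9.81-fold in KO_PBS (8.59 to 11.3).

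KO_PBS was not counted against the same gene list as WT and KO, and Gbp6 overlaps a gene found in only 1 of the lists. Gm43302 (ENSMUSG00000079362, chr5:105214907-105293695, minus strand) is listed for KO_PBS and not for WT or KO. It covers 99.99% of the span and 29.0% of the exonic bases of Gbp6. Of the 90-base runs in Gbp6 transcripts, 60.1% also occur in Gm43302 and 37.9% in Gbp10. Gm43302 had 206 UMIs in KO_PBS, 1.16 CPM (1.01 to 1.33). Reads counted for neither gene would show in neither value. How reads shared by both genes were assigned is not given in the sources used here. The gene list differs for the whole KO_PBS library. In each comparison of KO_PBS, for every member, the gene list and the treatment cannot be told apart. Gbp10, a near copy, also stood lower in KO_PBS than in KO, at 0.121, 10.9 and 3.30 CPM over the libraries. Since it shares runs with Gbp6, this is not a separate observation. Whether Gm43302 also overlaps Gbp10 was not examined. For each of the other 9 members at most 10.5% of such runs occur in another gene, and Irgm1 and Iigp1 share none.

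PBS-treated and untreated knockout were then compared, on libraries that the comparisons with WT also use. By the rule of size 1 of 10 members differed, Gbp6, which was 6.61-fold lower in KO_PBS (6.29 to 6.95). Among all 22416 genes 39.9% were called higher and 4.7% lower, 44.6% in either direction. Without Gbp6, left out after its values were seen, 0 of 9 members differed by library totals. With median-of-ratios factors Gbp2 and Iigp1 of these 9 were also lower in KO_PBS, and with TMM factors Gbp2, Iigp1 and Irgm2. The members' median log2 ratio was 0.11 and that of all genes 0.63, so relative to the median gene the members' median was -0.52. By library totals 6 members had ratios above 0, Gbp5 (0.96), Gbp3 (0.47), Irgm1 (0.38), Gbp7 (0.37), Igtp (0.16) and Gbp4 (0.06). Of these, Gbp3, Irgm1, Gbp7, Igtp and Gbp4 fell below 0 when libraries were scaled by TMM or by median-of-ratios factors, whereas Gbp5 stayed above at 0.27 and 0.46. Gbp2 (-0.66), Iigp1 (-0.56), Irgm2 (-0.50) and Gbp6 (-2.73) were below 0 under each scaling. Gbp5 missed the 2-fold rule narrowly at 1.94-fold (1.89 to 2.00).

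**Figure D2:**
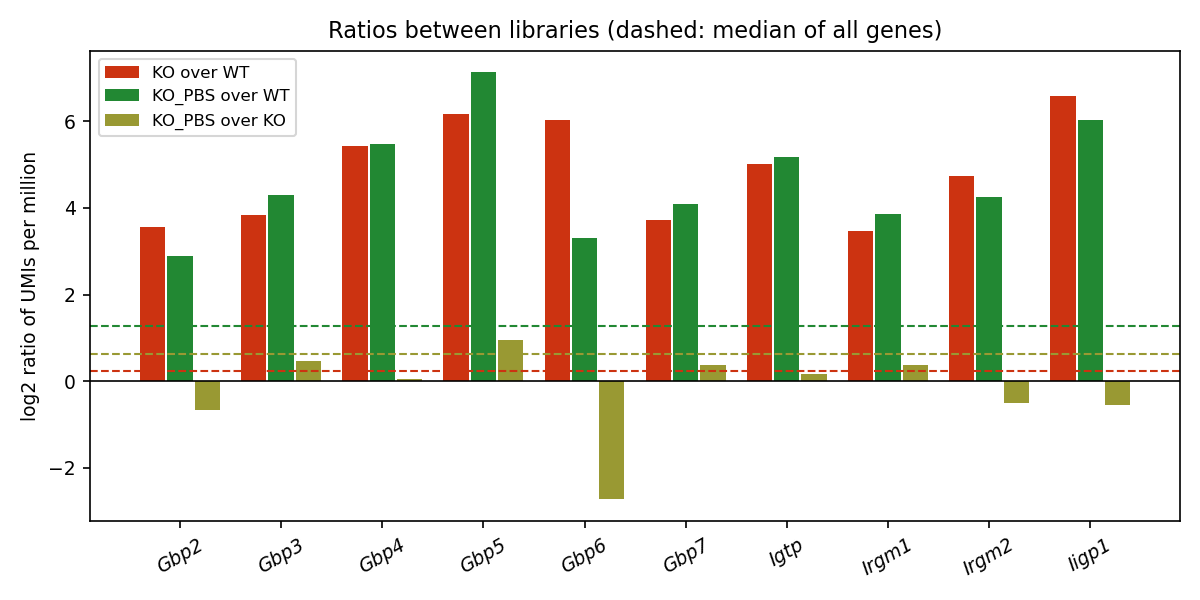
Log2 ratio of CPM between libraries for each gene, for KO over WT, KO_PBS over WT and KO_PBS over KO, with the median of all genes as dashed lines. Bars against WT lie above their dashed line for every gene. The KO_PBS over KO bars of Gbp3, Gbp4, Gbp7, Igtp and Irgm1 are small and turn negative under the other scalings.

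Scaling bears on the counts over all genes as well. With median-of-ratios factors 2524 of 20252 genes stood above WT in KO and 3375 below, in place of 4164 and 1748. For KO_PBS against WT the split was 8112 and 3360 in place of 12609 and 899. For KO_PBS against KO it was 7085 and 2299 in place of 8942 and 1053. The 10 members were higher than WT in both knockout libraries with either scaling.

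Related genes were read in the same libraries, and their counts are set beside shares of all genes. By library totals these were 20.6% higher in KO over WT, 57% in KO_PBS over WT and 44.6% different in KO_PBS against KO. With median-of-ratios factors 12.5% of all genes were higher and 16.7% lower in KO over WT, 36.6% and 15.2% in KO_PBS over WT, and 31.6% and 10.3% in KO_PBS over KO. With TMM factors these shares were 17.9% and 10.3%, 38.7% and 13.3%, and 29.2% and 14.1%. Of 16 other genes, 14 were used, all of both families except Gvin1, a very large interferon-inducible GTPase. All 14 of 14 were called higher in KO over WT (median log2 ratio 5.12, beside 0.24 for all genes). The same 14 were higher in KO_PBS over WT (median 4.60, beside 1.27). Tgtp1 (log2 ratio 6.59 for KO over WT), Gbp10 (6.50) and Tgtp2 (6.38) had the highest ratios and the IRG-like 9930111J21Rik2 (3.20) the lowest. Tgtp1 and Tgtp2 are near-identical copies, so their separate counts are uncertain. Between KO_PBS and KO 2 of the 14 differed, beside 44.6% of all genes. Gvin1 was 2.53-fold higher, and Gbp10, which shares runs with Gbp6, was at 0.302-fold. With either other scaling 0 of the 14 were higher and 4 lower in KO_PBS.

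Of 8 interferon and receptor genes, 5 had enough UMIs for the rule, and 2 of them, Ifng and Ifngr1, stood higher than WT in KO, beside 20.6% of all genes (median log2 ratio 0.93, beside 0.24). In KO_PBS 1 of the 5, Ifng, stood higher than WT, beside 57% of all genes (median 0.64, beside 1.27). Ifng, the gene of interferon gamma itself, had 1, 453 and 382 UMIs. Ifngr1, the ligand-binding chain of its receptor, was at 41.4, 110.2 and 42.4 CPM, and was called higher in KO than in either other library. Its partner chain Ifngr2 was at 36.0, 37.5 and 39.2 CPM and had the smallest KO over WT log2 ratio of the 5 (0.06). Ifnar1 (15.3, 24.0 and 25.8 CPM) and Ifnar2 (20.9, 39.8 and 32.5 CPM), the type I receptor, were not called.

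Among 15 signalling and transcription factor genes, 10 stood higher than WT in KO (median log2 ratio 1.66, beside 0.24 for all genes) and 11 in KO_PBS (median 1.57, beside 1.27), with 0 lower in either. Among all genes 20.6% and 57% were higher. With median-of-ratios or TMM scaling 9 stood higher in KO, beside 12.5% and 17.9% of all genes, and 7 in KO_PBS, beside 36.6% and 38.7%. Between KO_PBS and KO 0 of 15 differed, beside 44.6% of all genes, with a median log2 ratio of -0.03 beside 0.63, while 3 were lower in KO_PBS with median-of-ratios and 5 with TMM factors. Nlrc5, the activator of MHC class I genes, was at 0.965, 67.9 and 46.6 CPM. Irf8, a factor of myeloid and B cells, was at 2.33, 45.2 and 89.8 CPM, and the feedback inhibitor Socs3 at 1.77, 23.1 and 22.6. Jak1, a kinase of the interferon receptors, had the smallest KO over WT ratio of this list, at 142, 211 and 133 CPM.

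Genes of the pathways that GBPs and IRGs act with were read last. Of 12 autophagy-related partners, 0 were called in KO against WT (median log2 ratio -0.10, beside 0.24 for all genes), where 20.6% of all genes were higher and 8.63% lower. With median-of-ratios factors 1 was lower, beside 16.7% of all genes. Most ratios were below 0, down to -0.86 for Gabarapl2, while Sqstm1 (0.80), Ulk1 (0.71), Atg7 (0.63), Atg16l1 (0.58) and Gabarapl1 (0.13) were above 0. In KO_PBS 5 of 12 were higher than WT, a share below the 57% of all genes, with a median log2 ratio of 0.56 beside 1.27. With median-of-ratios or TMM scaling 1 was higher than WT, beside 36.6% and 38.7% of all genes, and 4 were lower, beside 15.2% and 13.3%. Against KO, where 39.9% of all genes were higher, 2 of 12 were higher under all 3 scalings, and 1 was lower with TMM factors. The 2 were Map1lc3a and Gabarapl1, which belong to the ubiquitin-like proteins attached to autophagosome membranes. Map1lc3a was at 105, 74.4 and 279 CPM, and Gabarapl1 at 14.6, 16.0 and 72.6. Of 10 inflammasome and vacuole-rupture genes, 7 stood higher than WT in KO (median log2 ratio 2.97, beside 0.24 for all genes) and 7 in KO_PBS (median 2.22, beside 1.27). Beside 20.6% and 57% of all genes higher, the KO_PBS count of 7 of 10 is near the share of all genes. In KO_PBS 6 stood higher and 2 lower with either other scaling, and in KO 1 was lower with median-of-ratios factors. Il1b, the cytokine that caspase-1 matures, was at 0.735, 27.8 and 12.8 CPM, and the sensor Nlrp3 at 0.129, 3.09 and 2.59 CPM. Caspase-11, encoded by Casp4, was at 1.75, 23.8 and 19.1 CPM. Il18 had the smallest KO over WT ratio (-0.64), and was not called. Nor were Pycard (-0.16) and Lgals3 (-0.53). Il1b was the 1 gene of this list called between KO_PBS and KO, where it was 0.459-fold, while 4 were lower in KO_PBS with median-of-ratios and 6 with TMM factors.

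The profile of the members over the 3 libraries was compared with 11252 genes that reached 10 CPM in at least 1 library, by the distance between log2 levels centred on each gene's mean. The 5 nearest to the members' mean profile were Gm26740 (distance 0.0153), the MHC class I gene H2-Q6 (0.0647), the T cell factor Runx3 (0.0851), the MHC class II gene H2-Eb1 (0.132) and the macrophage gene Aif1 (0.134). H2-Eb1 was at 23.1, 707 and 661 CPM and Aif1 at 3.49, 95.3 and 94.4 CPM. The members ranked from 22 (Irgm2) to 395 (Gbp6). With 3 libraries as points this likeness is a description.

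Markers of immune cells also stood higher in both knockout libraries than in WT. The 9 macrophage and myeloid markers summed to 51.1, 687 and 713 CPM, and the 9 T cell markers to 8.43, 159 and 155. The 7 B cell markers summed to 21.3, 126 and 139 CPM. Of each list 0 markers were at 0 in any library. Plasma cell markers summed to 16.7, 1257 and 117 CPM and neutrophil markers to 8.04, 657 and 52.9. Their part in the members' levels was not tested.

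The share of barcodes with a UMI was read after each barcode was thinned to 1000 UMIs, which left out 250, 219 and 16277 shallower barcodes. At least 1 of the 10 genes was found in 5.04% of WT barcodes (4.90 to 5.18%), 71.0% of KO (70.7 to 71.3%) and 65.1% of KO_PBS (64.8 to 65.4%). Without thinning the shares were 12.5%, 95.9% and 75.9%. Iigp1 was found in 0.386%, 30.8% and 20.8% of thinned barcodes, and Gbp5 in 0.0260%, 2.46% and 4.46%. Gbp6 was found in 0.0965%, 6.05% and 0.895%. At least 2 different members were found in 0.111% of WT, 32.0% of KO and 26.8% of KO_PBS barcodes, and 3 or more in 0.00415%, 9.30% and 7.64%.

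**Figure D3:**
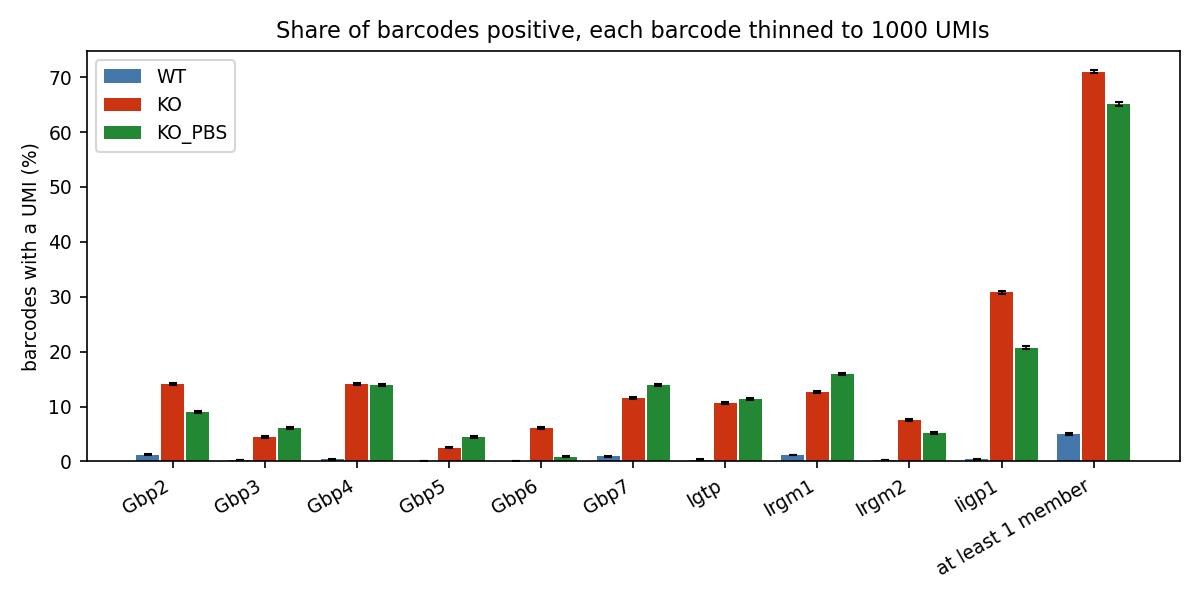
Percentage of barcodes with at least 1 UMI of each gene, and of any of the 10, after each barcode was thinned to 1000 UMIs. Bars are the 3 libraries with 95% exact binomial intervals. Any member was found in 5.04% of WT, 71.0% of KO and 65.1% of KO_PBS barcodes.

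These shares were not particular to barcodes with many UMIs. The 25% of barcodes with the fewest UMIs (medians of 1571, 2002 and 976), which were not shown to be empty, were read the same way. Thinning kept 23920 of 24170, 26557 of 26776 and only 12416 of 28693 of them, the deeper part of that group in KO_PBS. Iigp1 was found in 0.393%, 31.1% and 17.2% of those kept. The share in all barcodes was close to this in WT and KO and was higher in KO_PBS (20.5 to 21.01%, against 16.5 to 17.9% in the low-UMI barcodes). Free RNA was not separated from nuclei, so no share is read as a share of expressing nuclei. By level, the members summed to 52.0 CPM in the 25% of WT barcodes with the fewest UMIs (49.7 to 54.3) and 53.1 in the 25% with the most (51.8 to 54.5). In KO the sums were 1291 (1281 to 1301) and 1235 (1229 to 1241). In KO_PBS they were 973 (961 to 985) and 1255 (1247 to 1264), with Iigp1 at 189 and 303, Gbp5 at 36.8 and 57.1, and Igtp at 126 and 122. The counting intervals of shallow and deep barcodes overlapped in WT and were disjoint in KO, where the shallow ones were higher, and in KO_PBS, where the deep ones were.

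**Figure D4:**
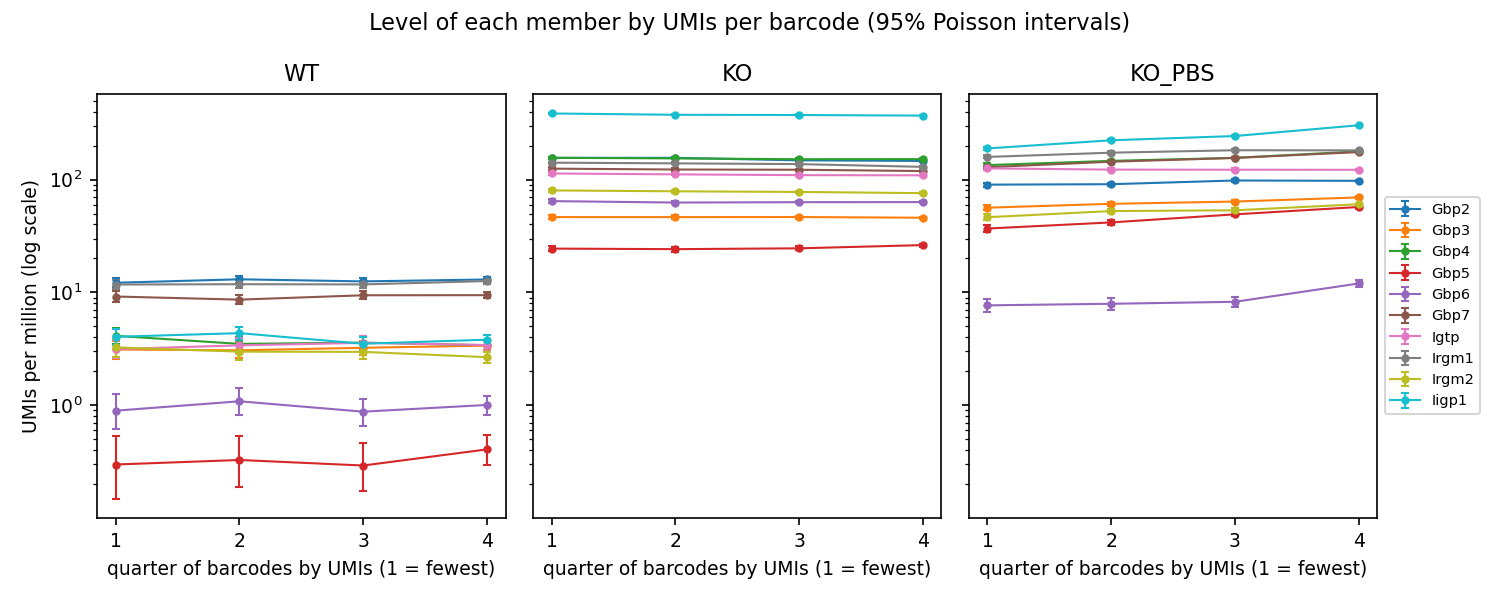
Level of each gene, in CPM on a log axis, in 4 groups of nearly equal numbers of barcodes ordered by their UMIs, for each library. Bars are 95% Poisson intervals. Lines are nearly flat in WT and KO, while in KO_PBS Iigp1 runs from 189 to 303.

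Barcodes rich in the markers of a cell type were set against the remaining barcodes of the same library. A barcode counted as rich with at least 3 markers of the type and 5 times the marker UMIs expected from its library's profile. Such barcodes still carried much of the library-wide mix. In the corneal endothelium-marker-rich barcodes epithelial markers stood at medians of 0.852, 0.880 and 0.633 times their expected UMIs. Doublets were not removed. Epithelium-marker-rich barcodes numbered 0, 0 and 1, so the main cell type of the cornea has no value here. A gene was read in a type when at least 20 UMIs were seen or expected there, a minimum set after values were seen, and called when at least 2-fold apart with disjoint intervals.

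In WT 1 of 15 readable pairs of gene and type was called higher, against 3.52% of the pairs of all genes. Iigp1 stood at 13.4 CPM (9.95 to 17.8, 49 UMIs) in 1262 corneal endothelium-marker-rich barcodes, against 3.59 (3.35 to 3.84) in the remaining ones. In that type 5.5% of all genes were called higher. Fewer than 20 Iigp1 UMIs were expected there, so this pair too could be read only because the gene was high. The corneal endothelium is the pumping cell layer on the inner face of the cornea. After thinning, 1.35% of these barcodes held an Iigp1 UMI (0.790 to 2.16%, median depth 2473 UMIs), against 0.393% of low-UMI and 0.794% of lens-marker-rich barcodes (0.397 to 1.42%, median depth 2132). The interval thus overlaps that of the lens type. By the same markers the type was at 478 CPM of Iigp1 (454 to 504) against 372 (369 to 374) in KO. In KO_PBS it was at 527 (486 to 571) against 249 (247 to 252), where 10.1% of all genes were called higher. Of the 10 leading genes of the type, 4 were its named markers in WT and in KO and 2 in KO_PBS. The KO_PBS barcodes also held Schwann cell markers at a median of 1.86 times their expected UMIs. Whether they are the same cells in each library is not known. In KO_PBS an Iigp1 UMI was found in 35.5% of these barcodes (30.5 to 40.6%, median depth 2502). The share was 17.2% of low-UMI barcodes and 18.5% of photoreceptor-marker-rich ones (14.9 to 22.6%, median depth 1812). The skeletal muscle type stood at 27.4% (20.8 to 34.9%) and the T cell type at 26.9% (22.6 to 31.5%). Their intervals overlap that of the corneal endothelium type. So do the vascular (22.9 to 31.4%), macrophage (21.9 to 32.6%) and plasma cell ones (4.19 to 33.7%). Intervals of the B cell, mural, Schwann cell, retinal pigment epithelium, lens and photoreceptor types lay below it. Over whole libraries the 8 markers of corneal endothelium summed to 450, 398 and 1837 CPM.

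In KO 0 of 129 readable pairs were called, against 0.996% higher among all genes. The members summed to 944 CPM (895 to 996) in plasma cell-marker-rich barcodes and to 1397 (1345 to 1451) in melanocyte-marker-rich ones, the lowest and highest of 15 types, against 1252 in the remaining barcodes. T cell-marker-rich (1318), B cell-marker-rich (1332) and macrophage-marker-rich barcodes (1245) lay within that range.

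In KO_PBS 8 of 97 readable pairs were called higher, against 5.75% of the pairs of all genes. The 8 include the Gbp6 pairs, which could be read only because Gbp6 was high. The count is therefore not read as above the share of all genes. Gbp5 was at 119 CPM (99.1 to 141) in 446 vascular and lymphatic endothelium-marker-rich barcodes, 104 (84.0 to 126) in 408 T cell-marker-rich, 96.7 (72.0 to 127) in 342 macrophage-marker-rich and 96.6 (72.5 to 126) in 243 B cell-marker-rich ones. The remaining barcodes had 47.95 CPM (46.9 to 49.0). Median depth was 2233, 2126, 1296 and 2082 UMIs in these 4 types and 1422 in the remaining barcodes, and Gbp5 was at 57.1 CPM (55.3 to 58.9) in the 25% of barcodes with the most UMIs, so the vascular, T cell and B cell types were deeper than the remaining barcodes and the macrophage type shallower. The part of depth in these calls was not tested. After thinning, Gbp5 was found in 9.30% (6.75 to 12.4%), 6.72% (4.47 to 9.62%), 6.83% (4.16 to 10.5%) and 8.37% (5.19 to 12.6%) of these barcodes. Among all KO_PBS barcodes the share was 4.46% (4.33 to 4.59%), which overlaps the T cell and macrophage intervals. It was 3.64% of the 12416 low-UMI ones kept (3.32 to 3.98%). Types without a call reached shares such as 7.32% in skeletal muscle-marker-rich (3.84 to 12.4%) and 5.64% in Schwann cell-marker-rich barcodes (2.85 to 9.87%), with intervals that overlap those of the called types. In those types 5.27%, 3.23%, 3.87% and 6.68% of all genes were called higher. In KO the same types had 33.1, 25.5, 31.6 and 35.2 CPM of Gbp5 against 24.9. No test of the difference between libraries was possible with 1 library each. Gbp6 was called in the vascular (19.0 CPM), T cell (22.2) and corneal endothelium (18.7) types against 9.33, each on 21 UMIs. Fewer than 20 UMIs were expected in each, so these pairs could be read only because Gbp6 was high there. Their calls therefore carry no weight of their own. After thinning, Gbp6 was found in 0.680% of vascular (0.141 to 1.98%), 2.49% of T cell (1.20 to 4.53%) and 1.39% of corneal endothelium-marker-rich barcodes (0.451 to 3.20%). In low-UMI barcodes the share was 0.805% (0.656 to 0.979%). The vascular share was not above that level, and the corneal endothelium interval overlapped it.

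Summed over the 10 genes, the vascular type of KO_PBS held 1612 CPM (1538 to 1688), the T cell type 1586 (1507 to 1669) and the macrophage type 1551 (1447 to 1661), against 1133 (1127 to 1138) in the remaining barcodes. The photoreceptor type held 847 (791 to 907) and the lens type 885 (751 to 1035). None of the named photoreceptor markers was among the 10 leading genes of the former, which were led by Pdzph1 and Pex5l. The calls depend on how a type is defined. Gbp5 in the vascular type was 2.42-fold with 3 times the expected marker UMIs, 2.83-fold with 10 times and 1.52-fold with 2 markers. In the macrophage type it was 1.55-fold and 1.72-fold with 3 times and with 2 markers, and in T cell-marker-rich barcodes 2.25-fold, 1.94-fold and 1.40-fold in that order. In the B cell type it was 2.00-fold, 1.84-fold and 1.29-fold, called with 3 times only. The Gbp6 calls in the vascular and corneal endothelium types were lost under each of these 3 settings, and the T cell one was kept with 3 times only. Iigp1 in the corneal endothelium type of KO_PBS was 1.70-fold with 3 times and 2.15-fold with 2 markers, and in WT between 2.81-fold and 5.89-fold under the 3 settings. In the main reading the WT pair passed the UMI minimum only because Iigp1 was high, and the settings share barcodes. The WT range therefore carries no weight of its own. Just inside the limit, within 1 of the factor of 5, lay 203 of the 372 corneal endothelium-marker-rich barcodes of KO_PBS, and 477 lay just outside. For the macrophage type of KO_PBS, 197 of 342 lay just inside and 484 just outside.

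**Figure D5:**
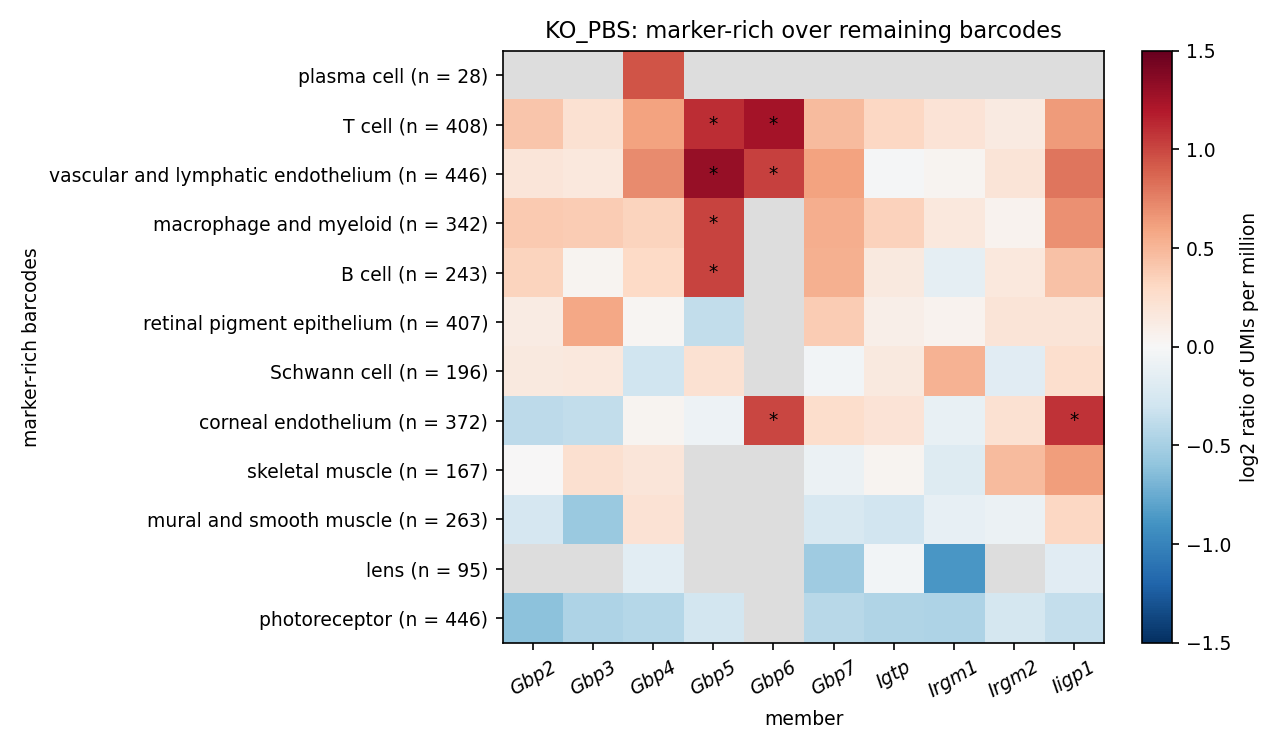
Log2 ratio of CPM in marker-rich barcodes over the remaining barcodes of KO_PBS, for each gene and cell type with its number of barcodes. Stars mark the 8 called pairs and grey marks pairs under 20 UMIs. Gbp5 is starred in the T cell, vascular, macrophage and B cell rows.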

How the data were processed

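The authors deposited 1 matrix of UMI counts per library, whole numbers that were not normalized, from the 10x Genomics 3' kit (version 3 chemistry, per the labels' protocols). Counts came from Cell Ranger 7.0.1, per the file headers, and build mm10, per the submitters' processing notes. Which annotation was used, whether intronic reads counted and how barcodes were kept is not given in the sources used here. The WT and KO files list 32285 genes and the KO_PBS file 31053, so gene levels were computed over the 30406 shared Ensembl IDs (99.6%, 99.6% and 99.3% of UMIs). Whether a shared ID had the same gene model in both lists is not known. Sums of cell type markers were scaled to each library's whole total.

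UMIs were summed over all deposited barcodes and scaled to 1000000 per library (CPM). With 1 library per group a rule of size replaced a test, and intervals cover counting error only (Poisson for sums, Clopper-Pearson for shares). The members, gene lists and rules were chosen with earlier results of these data known. All 10 members are named. From the related lists the genes against the main direction (up to 5), the 3 largest and the 1 smallest KO over WT ratios are named, as are the 5 genes most like the members. Ifnar1, Map1lc3a and Gvin1 were named after their values were seen. A UMI minimum of 20 for marker-rich types and the alternatives without Gbp6, with a 1.5-fold limit, without shared barcodes and with the other scalings for the related lists were added after the data were seen. Promoters came from RefSeq (GRCm38.p6) and gene models from GENCODE M21. TMM factors on the deposited counts came from edgeR 4.0.16 in R 4.3.3, and all else from scipy 1.17.1, pandas 2.3.3, numpy 2.4.6 and matplotlib 3.10.9 under Python 3.11.15.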

Additional observations from a re-analysis of the deposited data

Results flagged for a closer look

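Gm43302, a gene listed for KO_PBS and not for WT or KO, had 206 UMIs in KO_PBS. It stands out because it lies outside the genes compared between libraries and because its exons overlap those of Gbp6, the 1 member called different between KO_PBS and KO. There is no library on the same gene list to set it against.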

How the results depend on the processing

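The 10 members were higher than WT in KO and in KO_PBS under each other setting (2 other scalings, totals without immunoglobulin and mitochondrial genes, a barcode filter, the 25% of barcodes with the fewest UMIs, equal weight per barcode, no UMI minimum, a 4-fold limit, whole gene lists) and, added later, with a 1.5-fold limit or without shared barcodes. Their log2 ratios lay between 3.08 and 6.63 for KO over WT and between 2.00 and 7.19 for KO_PBS over WT, and 80 of 80 values in each kept their sign where the setting alters ratios, against 68 of 80 for KO_PBS over KO. The median log2 ratio of all genes for KO_PBS over KO, 0.63 by library totals, was 0.13 with median-of-ratios factors and -0.06 with TMM. Called members between KO_PBS and KO numbered 1 in the analysis as reported. They were 3 with median-of-ratios factors (Gbp2, Gbp6 and Iigp1), 4 with TMM (also Irgm2) and 0 without Gbp6. In the 25% of barcodes with the fewest UMIs they were 2 (Gbp6 and Iigp1), beside 4956 higher and 989 lower of 17406 genes. With a 1.5-fold limit they were 3 (Gbp5 higher, Gbp2 and Gbp6 lower), beside 11418 higher and 1925 lower of 22416 genes. The cause of these shifts was not tested. Readable pairs of gene and marker-rich type called higher in WT were 2 of 35 with 2 markers, in place of 1 of 15. In KO_PBS they were 4 of 127 with 3 times the expected marker UMIs, in place of 8 of 97. They were 2 of 48 with 10 times and 2 of 128 with 2 markers. Shares of all genes were not computed under these settings. Of the KO_PBS pairs, Gbp3 in the retinal pigment epithelium type (10 times) and Gbp5 in the dendritic type (2 markers) were not among the 8. So 1 of the 8 was kept with 10 times and 1 with 2 markers. At 3 times, Gbp4 and Iigp1 were called lower in 46 epithelium-marker-rich barcodes of KO_PBS, on 10 and 7 UMIs. The share of barcodes with any member was 2.64%, 46.3% and 41.0% in WT, KO and KO_PBS thinned to 500 UMIs, 9.84%, 90.9% and 87.4% thinned to 2000 (which left out 34305, 13324 and 94943 barcodes), and 12.5%, 95.9% and 75.9% not thinned, so depth and the barcodes kept change together. No paired analysis was possible because each group is 1 library.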
